A study of Mus musculus with 8 samples.

Results

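A set of 7 genes of intraepithelial T and NK cells were followed in colonic epithelial preparations: *Trac*, *Cd3d*, *Trbv12-1*, *Trbj2-7*, *Cd7*, *Nkg7* and *Xcl1*. They were selected on the normalized counts of day 0, by name from the authors' table of genes that differ between genotypes. All 7 are among the 309 genes of that table, and none is among the 128 genes of the day 7 table. A gene is in the day 0 table because it passed the authors' thresholds for a difference between the same 4 libraries, so the day 0 values below are a description of selected genes and carry no test. The primary IECs (intestinal epithelial cells) came from colons of Efhd2f/f Vil1cre/+ mice, labelled Efhd2-deficient, and of Efhd2f/f mice, labelled wildtype. Both genotypes carry the floxed *Efhd2* alleles, and Cre recombinase driven by the villin promoter deletes the gene in the intestinal epithelium of the former. Day 0 samples had no DSS (dextran sodium sulfate, which injures the colonic epithelium), and day 7 samples were taken on the day 7 after DSS was given. Each of the 4 groups held 2 libraries. For its animal work the study used male and female mice aged 8 to 10 weeks. The study's isolation step released cells from the colon wall with EDTA and passed them through a strainer, and no sort for epithelial cells is described.

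T and NK lymphocytes live between the epithelial cells of the gut, and many of them are CD8-bearing T cells with alpha-beta or gamma-delta receptors. A T cell recognises antigen through a receptor whose variable part is assembled from V, D and J segments and joined to a constant region, and the receptor signals through the associated CD3 chains. Cytotoxic lymphocytes carry granules that kill target cells and secrete chemokines that call in other immune cells.

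On day 0 all 7 genes were lower in Efhd2f/f Vil1cre/+ IECs, with both libraries of that genotype below both Efhd2f/f libraries. Over all 309 listed genes, 67% lay in the same order, and since membership in the table used this contrast, nothing is read from the count. The 5 genes with substantial levels were at 32.0% to 48.3% of their Efhd2f/f mean, and the receptor segments *Trbv12-1* and *Trbj2-7*, which had few counts, were at 15.8% and 18.6%. The median log2 difference of the 7 was -1.16, against -1.17 for all listed genes and -1.50 for the 210 listed genes that were lower. One Efhd2f/f library, number 50, was the highest of the 4 for every gene but *Trac*. In bulk RNA, fewer lymphocytes in the preparation and less RNA of these genes per lymphocyte cannot be told apart.

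**Figure D1:**
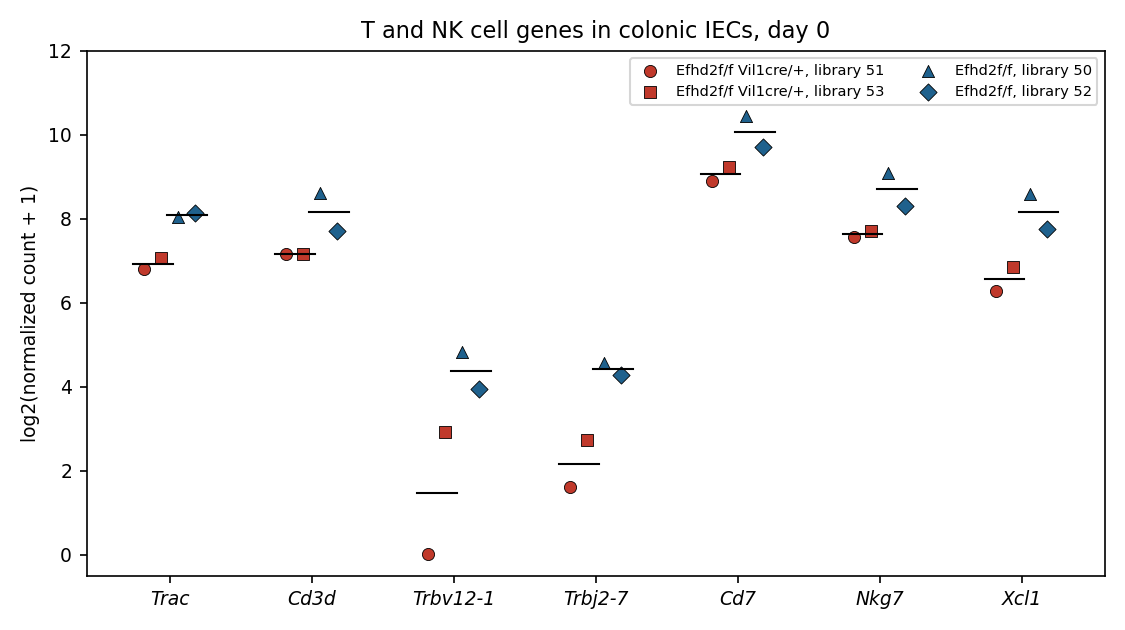
Each point is one library of day 0, plotted as log2(normalized count + 1) on the y axis for the 7 genes on the x axis, with the black lines at the mean of the 2 libraries of each genotype. All red points (Efhd2f/f Vil1cre/+) sit below the blue points (Efhd2f/f) of the same gene, and the library 50 triangle is the highest point for every gene except *Trac*.

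Values are normalized counts as the authors scaled them between the 4 libraries of the table. *Efhd2*, the deleted gene, was at 556 and 713 in the Efhd2f/f Vil1cre/+ libraries 51 and 53, and at 2663 and 2686 in the Efhd2f/f libraries 50 and 52, as the genotype labels say. Both Efhd2f/f libraries thus had near-equal *Efhd2*, differing by -0.01 on the log2 scale (50 minus 52). For the 7 genes this difference had a median of 0.78. It ran from -0.10 for *Trac* and 0.27 for *Trbj2-7* to 0.91 for *Cd3d*. The tables hold part of the genes, so the depth of the libraries is unknown. Log2 differences are on log2(normalized count + 1), Efhd2f/f Vil1cre/+ minus Efhd2f/f, with the standard error from limma over all listed genes and n = 2 libraries per genotype. This scale understates differences of genes with few counts.

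*Trac* encodes the constant region of the T cell receptor alpha chain and marks alpha-beta T cells. Its gene (ENSMUSG00000076928) lies on chromosome 14 of GRCm38 from 54220521 to 54224206 on the plus strand and has up to 4 exons. The normalized counts of *Trac* were 112 in library 51 and 132 in library 53 of Efhd2f/f Vil1cre/+ IECs, against 263 in library 50 and 281 in library 52 of Efhd2f/f IECs. The means were 122 ± 14.3 and 272 ± 13.1 (SD, n = 2 each), and the log2 difference was -1.16 (standard error 0.39). *Trac* was the one gene of the 7 for which library 52 was above library 50, and its genotypes stood apart by more than the gap within either pair. Its log2 difference was -1.21 without library 50 and -1.11 without library 52.

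*Cd3d* encodes the CD3 delta chain, which couples the receptor to signalling. Its gene (ENSMUSG00000032094, chromosome 9, 44981786 to 44987339, plus strand, up to 5 exons) was counted at 142 and 141 in the Efhd2f/f Vil1cre/+ libraries 51 and 53 and at 390 and 208 in the Efhd2f/f libraries 50 and 52. The Efhd2f/f Vil1cre/+ libraries were almost equal, while the Efhd2f/f libraries differed from each other by 0.91 on the log2 scale. The means were 141 ± 0.686 and 299 ± 129 (SD, n = 2 each), and the log2 difference of -1.005 (standard error 0.44) was the smallest in size of the 7. Without library 50 it was -0.55, and without library 52 it was -1.46. *Trac* and *Cd3d*, parts of one receptor complex, therefore did not vary in parallel between the control libraries. The ratio of *Trac* to *Cd3d* counts was 0.786 and 0.935 in the Efhd2f/f Vil1cre/+ libraries and 0.673 and 1.35 in the Efhd2f/f libraries, so the genotypes overlapped.

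The 250 bases before the start of *Cd3d* and the 245 bases before that of *Xcl1* are shown because these 2 genes had the smallest and the largest log2 difference among the 5 genes with substantial levels. They are RefSeq reference sequence of GRCm38.p6, chr9:44981536-44981785 on the plus strand and chr1:164935528-164935772 on the minus strand. Of the 7 genes, 3 had an entry in the promoter table used (*Cd3d*, *Nkg7* and *Xcl1*). Capitals mark matches, on either strand, to 4 motifs of lymphocyte transcription factor families: TGTGGT (RUNX), AGGAAG (ETS), CACCTG (E-box) and GTGTGA (T-box).
Cd3d: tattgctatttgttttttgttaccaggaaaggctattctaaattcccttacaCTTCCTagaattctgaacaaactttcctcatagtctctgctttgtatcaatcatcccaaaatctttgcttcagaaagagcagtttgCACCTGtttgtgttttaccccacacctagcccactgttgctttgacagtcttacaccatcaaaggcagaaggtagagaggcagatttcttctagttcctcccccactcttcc
Xcl1: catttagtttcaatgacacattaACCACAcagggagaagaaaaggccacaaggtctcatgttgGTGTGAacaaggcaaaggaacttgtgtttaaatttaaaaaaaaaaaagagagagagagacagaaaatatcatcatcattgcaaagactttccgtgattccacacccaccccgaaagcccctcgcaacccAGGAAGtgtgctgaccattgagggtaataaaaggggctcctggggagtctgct
The *Cd3d* stretch held 1 ETS match and 1 E-box match. The *Xcl1* stretch held 1 match each for the RUNX, ETS and T-box letters, as did the stretch before *Nkg7*, which is not shown. Among 32851 promoter stretches of 250 bases, 14.1% held the RUNX letters, 29.5% the ETS letters, 17.2% the E-box letters and 12.3% the T-box letters. Such matches are common and describe the sequence, not binding.

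The 2 receptor beta segments were counted at the lowest levels. *Trbv12-1* is a variable segment (ENSMUSG00000095574, chromosome 6, 41113550 to 41114067, plus strand, 2 exons) that supplies part of the antigen-binding face of some beta chains. It was at 0.011 and 6.61 normalized counts in the Efhd2f/f Vil1cre/+ libraries 51 and 53 and at 27.5 and 14.3 in the Efhd2f/f libraries 50 and 52. The value in library 51 is far under 1.01, the smallest value above 0.5 in that library. The means were 3.31 ± 4.66 and 20.9 ± 9.32 (SD, n = 2 each). Its log2 difference of -2.91 had the largest standard error of the 7 (0.84), and it was -1.46 without library 51 and -4.37 without library 53. *Trbj2-7* is a joining segment (ENSMUSG00000076497, chromosome 6, 41543810 to 41543856, plus strand, 1 exon of 47 bases) used in beta chains that carry the second constant region. It was at 2.04 and 5.62 in the Efhd2f/f Vil1cre/+ libraries 51 and 53 and at 22.6 and 18.5 in the Efhd2f/f libraries 50 and 52. Its means were 3.83 ± 2.53 and 20.5 ± 2.85 (SD, n = 2 each) and its log2 difference was -2.26 (standard error 0.48). Neither *Trbc1* nor *Trbc2*, the beta constant genes, is listed, so whether the beta chain as a whole differed was not analysed here.

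The segments are shown because their sequence bears on how uniquely they can be counted. The first pair is exon 2 of *Trbv12-1* (chr6:41113775-41114067) and of its neighbour *Trbv12-2* (chr6:41119072-41119364), both 293 bases on the plus strand of GRCm38 from GENCODE release M21, with capitals at the positions where they differ.
Trbv12-1: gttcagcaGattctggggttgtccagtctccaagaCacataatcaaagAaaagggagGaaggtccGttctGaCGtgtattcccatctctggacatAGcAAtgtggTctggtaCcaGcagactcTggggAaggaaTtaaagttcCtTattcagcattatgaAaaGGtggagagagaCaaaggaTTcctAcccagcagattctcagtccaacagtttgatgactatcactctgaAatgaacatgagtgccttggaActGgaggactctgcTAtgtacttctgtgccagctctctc
Trbv12-2: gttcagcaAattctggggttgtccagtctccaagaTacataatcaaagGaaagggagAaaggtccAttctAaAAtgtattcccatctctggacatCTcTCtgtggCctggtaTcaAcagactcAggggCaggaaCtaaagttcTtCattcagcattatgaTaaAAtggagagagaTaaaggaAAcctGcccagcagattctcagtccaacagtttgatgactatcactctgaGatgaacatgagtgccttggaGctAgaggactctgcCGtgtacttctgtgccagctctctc
They differ at 32 positions and are 89.1% identical, and their longest identical run is 44 bases. *Trbv12-2* is not listed. Within exon 2, only a read that lies wholly in a shared run, of at most 44 bases, would match both genes exactly. The read length was not examined here, so whether any reads were shared is unknown. The third sequence is the whole of *Trbj2-7* (chr6:41543810-41543856), with capitals at its match to the codons of the phenylalanine-glycine-X-glycine motif found in J segments.
Trbj2-7: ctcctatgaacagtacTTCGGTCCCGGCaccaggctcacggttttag
The same motif was found in 57 of 70 annotated T cell receptor J genes (81.4%) and in 11 of 13 J genes of the beta chain. A read that overlaps the 47 bases of *Trbj2-7* usually extends into a neighbouring segment of the rearranged transcript.

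*Cd7* encodes a surface glycoprotein of T and NK cells and was the most abundant of the 7. Its gene (ENSMUSG00000025163) lies on chromosome 11 from 121036747 to 121039418 on the minus strand, with 4 exons. It was at 477 and 597 normalized counts in the Efhd2f/f Vil1cre/+ libraries 51 and 53 and at 1384 and 841 in the Efhd2f/f libraries 50 and 52. The means were 537 ± 84.8 and 1112 ± 384 (SD, n = 2 each), and the log2 difference was -1.01 (standard error 0.43). The difference was -0.65 without library 50 and -1.37 without library 52. The genotypes did not overlap, but the gap from library 53 to library 52 was smaller than the gap between the Efhd2f/f libraries. An antisense gene, *Gm11775*, overlaps *Cd7*, and no strand-specific counting is stated, so reads of the pair cannot be told apart.

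*Nkg7* encodes a membrane protein of cytotoxic granules in NK cells and CD8 T cells. Its gene (ENSMUSG00000004612, chromosome 7, 43437073 to 43438249, plus strand, up to 4 exons) was at 189 and 208 normalized counts in the Efhd2f/f Vil1cre/+ libraries 51 and 53 and at 544 and 317 in the Efhd2f/f libraries 50 and 52. The means were 198 ± 13.6 and 431 ± 160 (SD, n = 2 each), and the log2 difference was -1.07 (standard error 0.43). It was -0.68 without library 50. *Nkg7* tracked *Cd3d* closely: the ratio of their counts was 1.33 and 1.47 in the Efhd2f/f Vil1cre/+ libraries and 1.39 and 1.53 in the Efhd2f/f libraries. The ratio of *Cd7* to *Cd3d* also overlapped between genotypes, with 3.36 and 4.24 against 3.55 and 4.04.

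*Xcl1* encodes lymphotactin, a chemokine that activated CD8 T cells and NK cells secrete and that attracts cross-presenting dendritic cells bearing XCR1. Its gene (ENSMUSG00000026573) lies on chromosome 1 from 164931644 to 164935527 on the minus strand, has 3 exons and overlaps the noncoding gene *Gm20743* on the other strand. *Xcl1* was at 77.1 and 114 normalized counts in the Efhd2f/f Vil1cre/+ libraries 51 and 53 and at 383 and 214 in the Efhd2f/f libraries 50 and 52. The means were 95.7 ± 26.3 and 299 ± 119 (SD, n = 2 each), and the log2 difference of -1.60 (standard error 0.45) was the largest of the 5 genes with substantial levels. It was -1.18 without library 50. Relative to *Cd3d*, *Xcl1* was at 0.543 and 0.811 in the Efhd2f/f Vil1cre/+ libraries and at 0.982 and 1.03 in the Efhd2f/f libraries, so it was the one of the 4 ratios to *Cd3d* in which the genotypes did not overlap. *Xcr1*, the gene of its receptor, is not listed on either day.

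**Figure D2:**
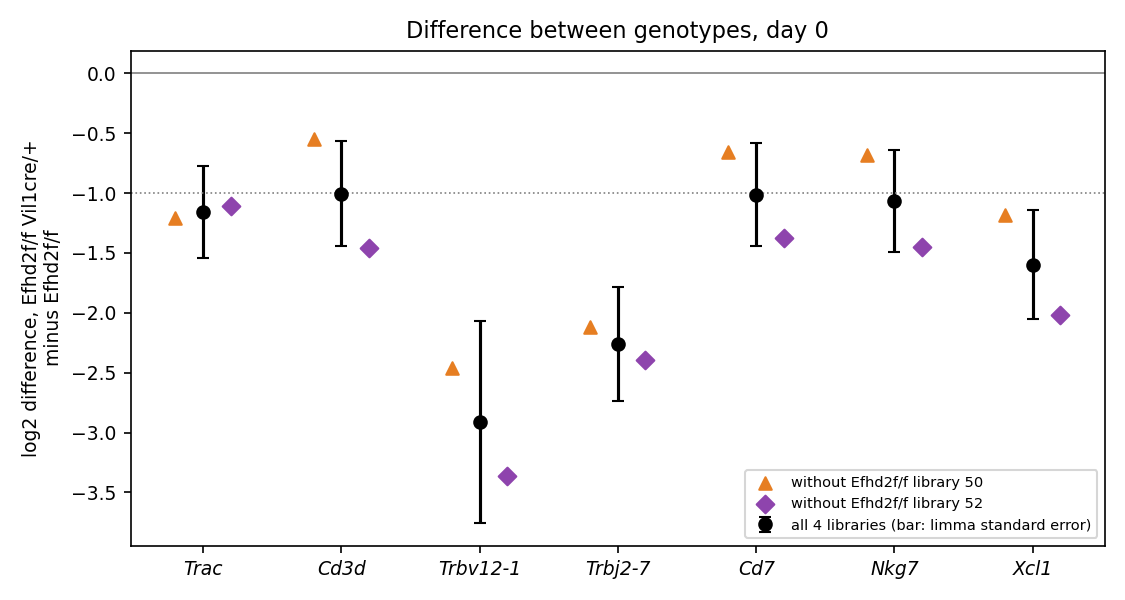
The log2 difference between genotypes on day 0 (y axis, Efhd2f/f Vil1cre/+ minus Efhd2f/f) is plotted for the 7 genes (x axis) from all 4 libraries (black, bars are limma standard errors) and without each Efhd2f/f library. Without library 50 (triangles), *Cd3d*, *Cd7* and *Nkg7* lie above the dotted line at -1, at -0.55, -0.65 and -0.68, and without library 52 all 7 lie below it.

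All 7 log2 differences were beyond -1 with the 4 libraries (65% of all listed genes), and 4 of 7 were without library 50 (48.5% of all listed genes). By limma, 6 of the 7 passed an adjusted p-value of 0.05 with a log2 difference beyond -1, where 62.5% of all listed genes did, and *Cd3d* did not. With library 51, 53 or 50 left out, limma called 0 of the 309 listed genes, the 7 included, so these fits say nothing particular about the 7. At an unadjusted p-value under 0.05 they held 1 of the 7 and 111 of the 309 without library 51, 3 and 149 without library 53, and 1 and 179 without library 50. Without library 52, limma called 5 of the 7 lower, and 159 of the 309. Since the genes were listed for this very difference, these counts are given as background. With 2 libraries against 2, an exact two-sided permutation test of a single gene cannot go under 0.333.

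Per kilobase of the gene length in the table, *Cd7* had the highest level in Efhd2f/f IECs, with a mean of 982 normalized counts per kilobase, followed by *Xcl1* (571), *Nkg7* (471), *Trbj2-7* (437), *Trac* (291), *Cd3d* (165) and *Trbv12-1* (53.7). In Efhd2f/f Vil1cre/+ IECs *Cd7* (474) was again first, and *Nkg7* (217) was above *Xcl1* (183). The figure for *Trbj2-7* rests on a length of 47 bases and about 20.5 counts and is not comparable with those of whole genes.

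Most other listed genes of T and NK cells were lower too, and *Ctla4* was not. From 6 lists (T cell core genes, both kinds of receptor, cytotoxic genes, secreted products and genes of intraepithelial residency), 19 genes were listed on day 0, the 7 and 12 more. In all 19 both Efhd2f/f Vil1cre/+ libraries were below both Efhd2f/f libraries. The same held for 207 of the 210 lower listed genes (67% of all 309), so nothing is read from this count. The median log2 difference of the 19 genes was -1.19. *Ctla4*, an inhibitory receptor gene of T cells that is in none of the lists, ran the other way, at 199.7 and 197.5 normalized counts in the Efhd2f/f Vil1cre/+ libraries against 59.7 and 120.1 in the Efhd2f/f libraries 50 and 52 (log2 difference 1.22). Its genotypes did not overlap, and it is named after its values were seen. Listing was far from complete: 3 of 24 T cell core genes were listed (*Cd7*, *Cd3d* and *Ptprcap*), 2 of 17 cytotoxic genes (*Nkg7* and *Cst7*), 1 of 8 secreted products (*Xcl1*) and 3 of 19 residency genes (*Cd160*, *Cd244a* and *Ccr9*). *Cd3e*, *Cd3g*, *Cd8a*, *Gzma*, *Gzmb* and *Itgae* are not listed, nor are the NK cell genes *Ncr1*, *Klrb1c*, *Klrd1* and *Eomes*. A gene that is not listed has no value here and cannot be said to be unchanged. Among the 7, the NK cell label thus rests on *Nkg7* and *Xcl1*, which cytotoxic T cells also express.

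*Ptprcap*, a partner of the phosphatase CD45, was nearest to *Xcl1* in size, with a log2 difference of -1.55 (standard error 0.46), and with 74.0 and 110 normalized counts in the Efhd2f/f Vil1cre/+ libraries against 364 and 194. *Cd160*, a receptor of intraepithelial and cytotoxic lymphocytes, was at 121 and 174 against 520 and 212, a log2 difference of -1.19, which was -0.55 without library 50. *Cd244a*, an NK and CD8 T cell receptor of the SLAM family, was at 162 and 204 against 487 and 305 (-1.08). *Cst7*, which encodes the granule protein cystatin F, was at 35.5 and 43.7 against 154 and 65.6, a log2 difference of -1.33, which was -0.72 without library 50. *Ccr9*, the receptor that guides lymphocytes to the gut, was at 88.2 and 90.9 against 236 and 137, a log2 difference of -1.0, which was -0.61 without library 50. The gamma-delta receptor gene *Trdc* was at 80.1 and 84.4 against 286 and 130, a log2 difference of -1.22, which was -0.65 without library 50. The 7 listed gamma and delta genes had log2 differences between -3.39 and -1.04. The value of -3.39 is that of *Trdv5*, which had few counts (0 and 0 against 18.7 and 4.55). The next largest in size was -1.70, for *Tcrg-V7*. The ratio of *Trac* to *Trdc* was 1.39 and 1.56 in Efhd2f/f Vil1cre/+ IECs and 0.917 and 2.17 in Efhd2f/f IECs, so the balance of the alpha-beta and gamma-delta constant genes overlapped between genotypes.

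**Figure D3:**
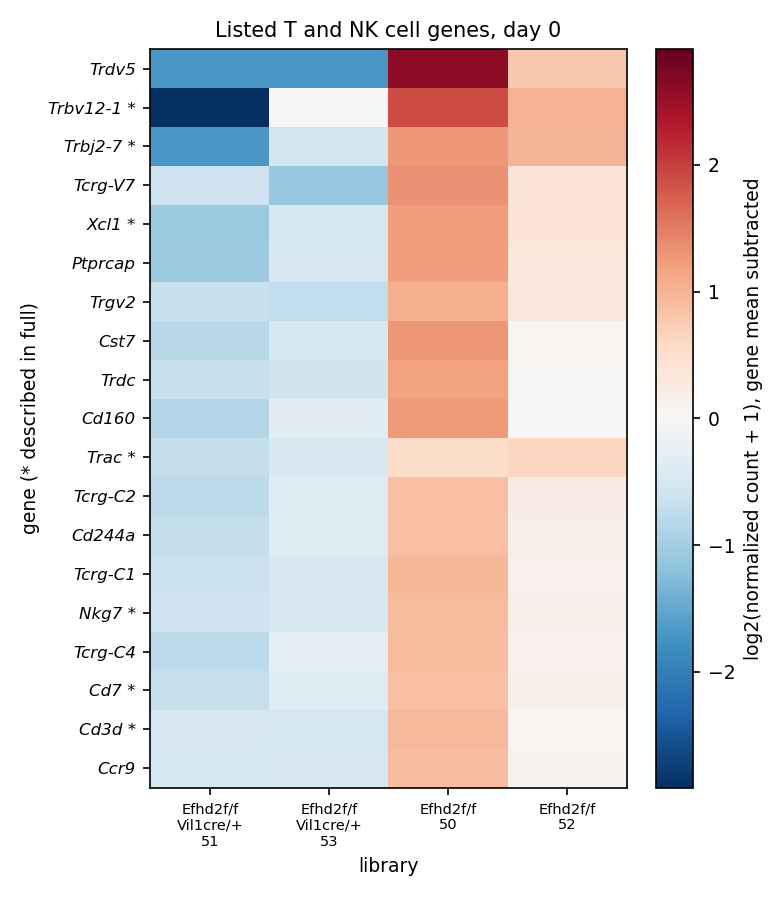
Each row is one of the 19 listed T and NK cell genes and each column a library of day 0, coloured by log2(normalized count + 1) after subtracting the gene's mean over the 4 libraries. Library 50 is the reddest column in 18 of the 19 rows, *Trac* being the exception, and both Efhd2f/f Vil1cre/+ columns lie below both Efhd2f/f columns in every row.

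Library 50 moved with the result. Summed over the 19 genes, the normalized counts were 2154 and 2639 in the Efhd2f/f Vil1cre/+ libraries 51 and 53, 6972 in library 50 and 4081 in library 52. Library 50 was above library 52 for 18 of the 19 genes, for 171 of the 210 lower genes (81.4%) and for 26 of the 99 higher genes (26.3%). The median log2 difference between libraries 50 and 52 was 0.84 for the 19 genes and 0.43 for the lower genes other than the 7. Without library 50, 8 of the 19 were lower by more than 1 on the log2 scale, where 48.5% of all listed genes were, so nothing is read from this count. The median of the 19 was then -0.74, against -0.99 for all listed genes and -1.24 for the 210 lower genes. The part of this library in the result was not tested. Library 52 alone was above both Efhd2f/f Vil1cre/+ libraries for all 7 genes. The lack of overlap between genotypes, shared by 67% of all listed genes, already requires this, so nothing is read from it.

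**Figure D4:**
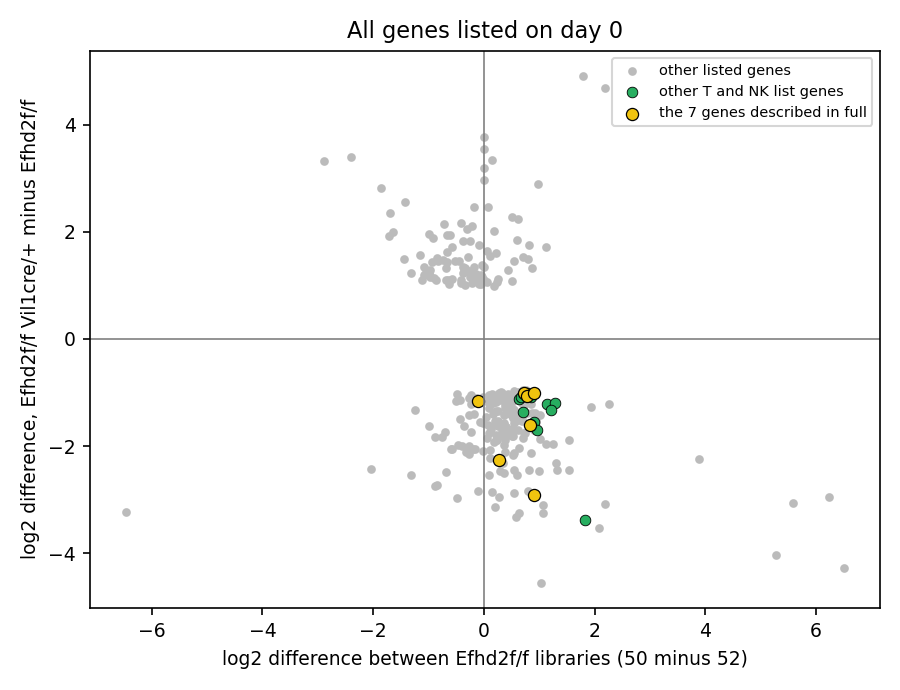
Each point is one of the 309 genes listed on day 0, with the log2 difference between the Efhd2f/f libraries (50 minus 52) on the x axis and the log2 difference between genotypes on the y axis. The T and NK cell genes (yellow and green) lie right of 0 apart from *Trac* and within the cloud of lower genes, and the empty band around 0 on the y axis reflects the authors' threshold for listing.

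Genes of other leukocytes were checked beside them. *Coro1a*, which encodes coronin 1A and is expressed across leukocytes, was the one listed gene of 7 pan-leukocyte genes, at 625 and 646 normalized counts in Efhd2f/f Vil1cre/+ IECs and 1842 and 1084 in Efhd2f/f IECs. It too was listed for this difference (log2 difference -1.15). Relative to *Coro1a* in the same library, a comparison chosen after the values were seen, *Cd3d* was at 0.227 and 0.218 in the Efhd2f/f Vil1cre/+ libraries and at 0.212 and 0.192 in the Efhd2f/f libraries, which is not lower. *Nkg7* was at 0.301 and 0.321 against 0.295 and 0.293, and *Cd7* at 0.763 and 0.924 against 0.751 and 0.776. *Trac* overlapped between genotypes (0.178 and 0.204 against 0.143 and 0.259), and *Xcl1* stayed lower at 0.123 and 0.177 against 0.208 and 0.198. Of these 5 genes, *Xcl1* alone was lower relative to *Coro1a* in both libraries. Of 18 B and plasma cell genes and the immunoglobulin segments, 4 were listed, 3 lower (*Ighd*, *Ighg2b* and *Ighv8-12*) and 1 higher (*Igkv8-24*), and *Itgax* was the 1 listed gene of 6 dendritic cell genes (log2 difference -1.07). None of 11 macrophage and monocyte genes, 10 neutrophil genes, 6 innate lymphoid cell genes or 8 epithelial genes was listed on day 0. Whether the preparations held unequal shares of leukocytes was not tested.

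**Figure D5:**
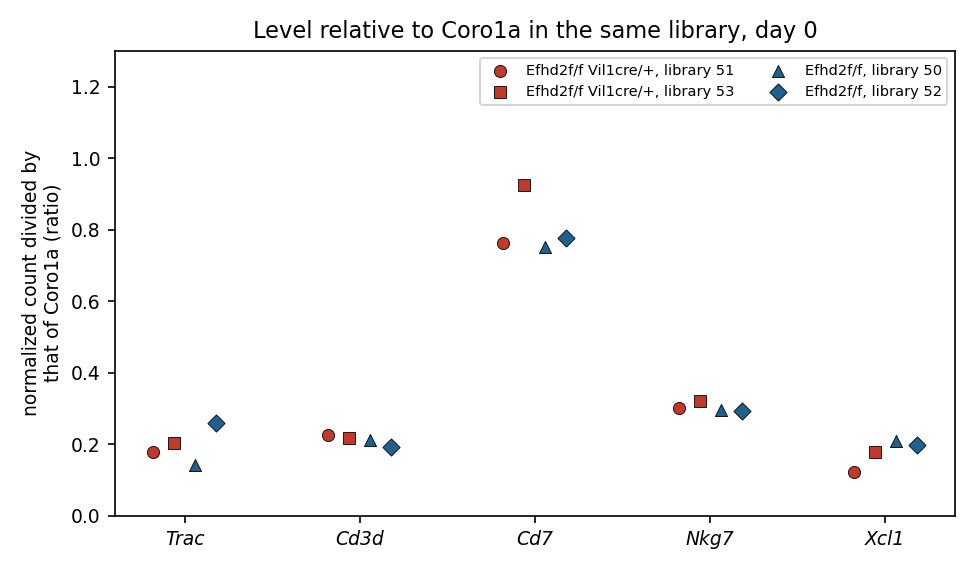
The y axis gives the normalized count of each gene divided by that of *Coro1a* in the same library, for the 4 libraries of day 0 and the 5 genes with substantial levels. The red points (Efhd2f/f Vil1cre/+) lie at or above the blue points (Efhd2f/f) for *Cd3d*, *Cd7* and *Nkg7* except that library 51 of *Cd7* (0.763) is under library 52 (0.776), and only for *Xcl1* do both red points lie below both blue ones.

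None of 16 epithelial genes that act on intraepithelial lymphocytes was listed on either day, among them *Il15*, *Il15ra*, the butyrophilin-like genes *Btnl1*, *Btnl2*, *Btnl4* and *Btnl6*, *Cdh1* and *Ccl25*. On day 7, of the 6 T and NK lists only *Ccl3* was listed, and it was higher in Efhd2f/f Vil1cre/+ IECs, at 1815 and 452 normalized counts against 143 and 285. *Ccl3* is also made by neutrophils and macrophages. Of their lists, 7 of 10 and 1 of 11 genes were listed on day 7, all higher in Efhd2f/f Vil1cre/+ IECs. The 7 B and plasma cell genes and immunoglobulin segments listed on day 7 were all higher too. The share of higher genes among all genes listed on day 7 was not analysed here, so nothing is read from these directions. Which cells the *Ccl3* RNA came from was not tested. Absence from the day 7 table does not show that the 7 genes were equal between genotypes after DSS, and their day 7 levels were not analysed here. A difference between days was therefore not tested.

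The listed genes whose profile over the 4 libraries was most like the median profile of the 7 were sought among the 202 other listed genes whose mean over the libraries reached 50. Likeness was the root mean square difference of gene-centred log2 values over the 4 libraries. *Txk*, a kinase of the TEC family in T and NK cells, was first, at 0.068. *1810006J02Rik* (0.070), *Lama3*, a laminin chain gene of the epithelial basement membrane (0.077), *Chga*, the chromogranin A gene of enteroendocrine cells (0.084), and *Cpe*, a carboxypeptidase gene that processes hormones (0.088), followed. So 3 of the 5 nearest genes are not lymphocyte genes in textbook terms, and the first gene of the T and NK lists stood at rank 9. Of the 10 genes of those lists among the 202, 6 were among the nearest 51. All 10 were lower in Efhd2f/f Vil1cre/+ IECs, as were 124 of the 202, so nothing is read from this count. For single genes, *Cd7* was nearest to *Cd244a*, *Nkg7* to *Tcrg-C1*, *Xcl1* to *Ptprcap*, *Cd3d* to *Cbx7*, *Trac* to *Duox2*, *Trbj2-7* to *Fcer1g* and *Trbv12-1* to *Adamts18*. The 4 libraries can hold few distinct patterns, and all these genes share the same libraries.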

How the data were processed

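RNA was sequenced by the authors from colonic IECs with 2 libraries in each of 4 groups. Per the labels, CASAVA 1.8, fastp, HISAT2 2.0.5, featureCounts 1.5.0-p3 and DESeq2 1.20.0 were used with GRCm38. The deposited tables, one per day and normalized separately, give a signal per library, a normalized count per gene scaled by a method not given in the sources used here. They hold only genes past the authors' thresholds, and the authors' fold changes and p-values in them were not used. Whole reads were not recovered in every library: within 0.1 of a whole multiple of a single step lay 49.1% to 100.0% of the values above 0.5 and under 60. On day 0 this share was 100.0% in library 51, 70.9% in library 53, 96.7% in library 50 and 49.1% in library 52. Values under 1e-06 were set to 0 (25 on day 0). Columns name the genotype and day but carry no replicate number of the labels, and no label says whether libraries came from separate mice, so the spread between them may be technical.

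All 309 genes of day 0 were fitted by limma 3.58.1 (R 4.3.3) on log2(value + 1), with Benjamini-Hochberg adjustment, a log2 threshold of 1 and an adjusted p-value threshold of 0.05. The fit was tested on simulated data. Python 3.11.15 was used otherwise. Named genes are the 7, *Efhd2*, listed genes of the marker lists and the genes nearest in profile. The 7 genes and the lists were chosen with earlier results of these data known. Alternatives were other pseudocounts, a filter on low values, equal library sums and leaving out each library. Gene coordinates in the tables equal those of GENCODE release M21 for all 7.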

Additional observations from a re-analysis of the deposited data

How the results depend on the processing

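Of 54 values of the 7 genes under the alternatives, 45 were counted as moving by less than 1 SD between replicates. Leaving out 1 of the 2 libraries of a genotype cannot shift a difference by more than this SD. The values of the leave-one-out fits in this count were therefore fixed by construction and are no sign of stability. Among the 9 values counted as moving further, *Cd3d* without library 52 (-1.4576) is there only because it was rounded before the comparison. The direction is no sign of stability, since the genes were listed for it and their genotypes do not overlap. When the listed genes were made to total alike in every library, the 7 had a median log2 difference of -1.77, as the median of all listed genes also moved, to -1.79. Over all listed genes that scaling gave 207 lower and 30 higher calls by limma, against 193 and 94 as the authors scaled them. With a pseudocount of 0.1, limma called 3 of the 7 lower and 182 of all 309 listed genes, against 6 and 193 with a pseudocount of 1. Fits that omitted a single library called 0 to 5 of the 7 lower and 0 to 159 of the 309 (0 of both without library 51, 53 or 50), the median log2 difference was between -1.46 and -1.04, and 4 to 7 of the 7 and 8 to 19 of the 19 T and NK list genes were lower by more than 1 (11 without library 51, 8 without library 50). Of all listed genes, 48.5% were lower by more than 1 without library 50. Leaving out a library cannot make the 7 overlap between genotypes, so the count of genes without overlap stayed at 7 by construction. The leave-one-out counts of genes past 1 and of overlap were added after seeing the data. A fit without one library assumes that the lone library varies like the other pair. Adjustment over all genes tested by the authors was not run, since it needs the p-values of the authors. No paired analysis was possible because the columns carry no replicate numbers. Depth is unknown, which limits *Trbv12-1* and *Trbj2-7* most.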

Other observations

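Among further listed genes of lymphocyte receptors and signalling on day 0, 15 were picked after their values were seen, so their shared direction supports nothing. The inhibitory receptor gene *Ctla4*, not among the 15, was higher in Efhd2f/f Vil1cre/+ IECs (log2 difference 1.22). In all 15, both Efhd2f/f Vil1cre/+ libraries were below both Efhd2f/f libraries, as in 207 of the 210 lower listed genes (67% of all 309). *Il2rb*, the receptor chain shared by interleukin 2 and interleukin 15, was at 306 and 311 normalized counts against 756 and 495, a log2 difference of -0.99. *Hcst*, which encodes the adaptor DAP10 of NKG2D, was at 58.8 and 66.8 against 141 and 127 (-1.08). *Lag3*, an inhibitory receptor gene, was at 53.7 and 42.6 against 175 and 74.3, a log2 difference of -1.24, which was -0.63 without library 50. The NK receptor genes *Klra5* and *Klrc3* were at 97.3 and 55.4 against 314 and 218 (-1.82), and at 6.06 and 0 against 31.4 and 20.8 (-3.32). *Btla*, an inhibitory receptor gene of T and B cells, was the one of the 15 with library 52 above library 50 (45.1 in library 50 and 54.2 in library 52, against 12.2 and 11.1). *Hcst*, *Lax1* and *Tespa1* differed little between the Efhd2f/f libraries, and without library 50 their log2 differences were -1.01, -0.996 and -1.11. Without library 50, 7 of the 15 were lower by more than 1, where 48.5% of all listed genes were, so nothing is read from this count.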
